A study of Bos taurus with 12 samples.

Results

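Prolactin and growth hormone receptor signalling was followed through 7 genes: the receptors PRLR and GHR, the transcription factors STAT5A and STAT5B, and the feedback inhibitors SOCS2, SOCS3 and CISH. A gene was taken where its symbol stood in the gene name or description of a probe that was not a control. That gave 8 transcripts (2 of GHR, 1 of each other gene) and 20 probe names. They were taken out of 17795 gene symbols, 26323 transcripts and 61333 probes, the probes kept after flagged ones were left out. The genes were chosen with the values of old and young females known, PRLR above all selected on its levels in them, so the OF and YF values of these 7 genes are a description and carry no test.

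The arrays held RNA of endometrial biopsies taken on Day 15 of a synchronised oestrous cycle, from the horn on the side of the corpus luteum. Old females (OF, n = 4) were nulliparous Holstein clones aged 13 to 14 years, and young females (YF, n = 4) were primiparous clones aged 4 to 5 years. OF and YF all came from the nuclei of 1 donor cow, so they stand for 1 nuclear genome, and age cannot be told apart from parity. Contemporary cows (n = 3, with 1 further cow, animal 1111, left out by the authors for a divergent phenotype) were sampled on the same day, and their genotype, age and parity are not given in the sources used here. Of 13 epithelial markers 12, and of 9 stromal markers 9, were well above background on all 12 arrays.

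Prolactin, placental lactogen and growth hormone bind single-pass receptors of the class I cytokine family, which have no kinase of their own and work through the bound kinase JAK2. JAK2 phosphorylates STAT5A and STAT5B, which pair, enter the nucleus and switch on target genes. Among these are SOCS2, SOCS3 and CISH, whose proteins dampen the same receptors. In the ruminant uterus, PRLR is known from the endometrial glands, where placental lactogen from the conceptus can bind it.

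Each of the 8 transcripts was read by 2 different probe sequences. They are shown here because they set what each value can mean. The 2 PRLR probes overlap by 42 bases, so they are nearly the same measurement, and the 30 bases below come from the centre of that overlap. The GHR probes are shown because the second probe of GHR-202 overlaps the first probe of GHR-201 by 18 bases and the second by 42, so that the values of the 2 GHR transcripts rest in part on the same sequence. Capitals mark the stretch both PRLR probes share and, in the GHR probes, a TAG triplet at base 57 of GHR-201 probe 1 that closes a frame open for 18 codons. Both of these GHR stretches are printed only up to that triplet, which leaves out the last base of GHR-201 probe 1 and the last of the 18 shared bases. The SOCS3 and STAT5A probes are shown because 1 probe of each was dim. All are written 5′ to 3′ as the array design gives them.
PRLR, both probes: AATGCCATGAAAACCACTTTGAAGACCAGT
GHR-201 probe 1, to the TAG: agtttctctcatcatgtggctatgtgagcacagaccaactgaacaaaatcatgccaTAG
GHR-202 probe 2, shared stretch to the TAG: acaaaatcatgccaTAG
GHR-202 probe 1: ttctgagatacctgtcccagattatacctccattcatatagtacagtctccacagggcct
STAT5A probe 1: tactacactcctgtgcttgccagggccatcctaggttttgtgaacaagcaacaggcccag
STAT5A probe 2: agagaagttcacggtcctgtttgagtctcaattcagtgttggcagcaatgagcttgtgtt
SOCS3 probe 1: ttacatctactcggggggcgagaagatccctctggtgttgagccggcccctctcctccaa
SOCS3 probe 2: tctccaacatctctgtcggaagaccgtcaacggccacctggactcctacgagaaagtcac

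No probe of another transcript shared a stretch of 20 bases or more with any probe of the 7 genes. Levels below are the log2 of the processed spot intensity minus the 75th percentile of the array, averaged over the probes of a transcript. A level of 0 therefore equals the array's 75th percentile, and levels of different genes are not compared. A probe counts as well above background where Feature Extraction flagged it so.

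The receptors come first. The annotated PRLR transcript (ENSBTAT00000014437) lies at chr20:39073246-39137480 of UMD3.1. Its level was -5.15 in OF animal 0233, -5.07 in 0234, -5.53 in 0245 and -3.23 in 2258. In YF it was -7.94 in animal 1069, -6.15 in 1070, -5.75 in 1072 and -8.59 in 1127. All 4 OF lay above all 4 YF, and the gap between the groups, from 0245 to 1072, was small beside the range of 2.84 among YF. In contemporary cows the level was -7.66 in 1068, -3.64 in 1128 and -6.04 in 1129, a range of 4.02 that took in 3 of the 4 OF and 2 of the 4 YF. The means were -4.75 ± 1.03 in OF (SD, n = 4), -7.11 ± 1.37 in YF (SD, n = 4) and -5.78 ± 2.02 in contemporary cows (SD, n = 3).

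**Figure D1:**
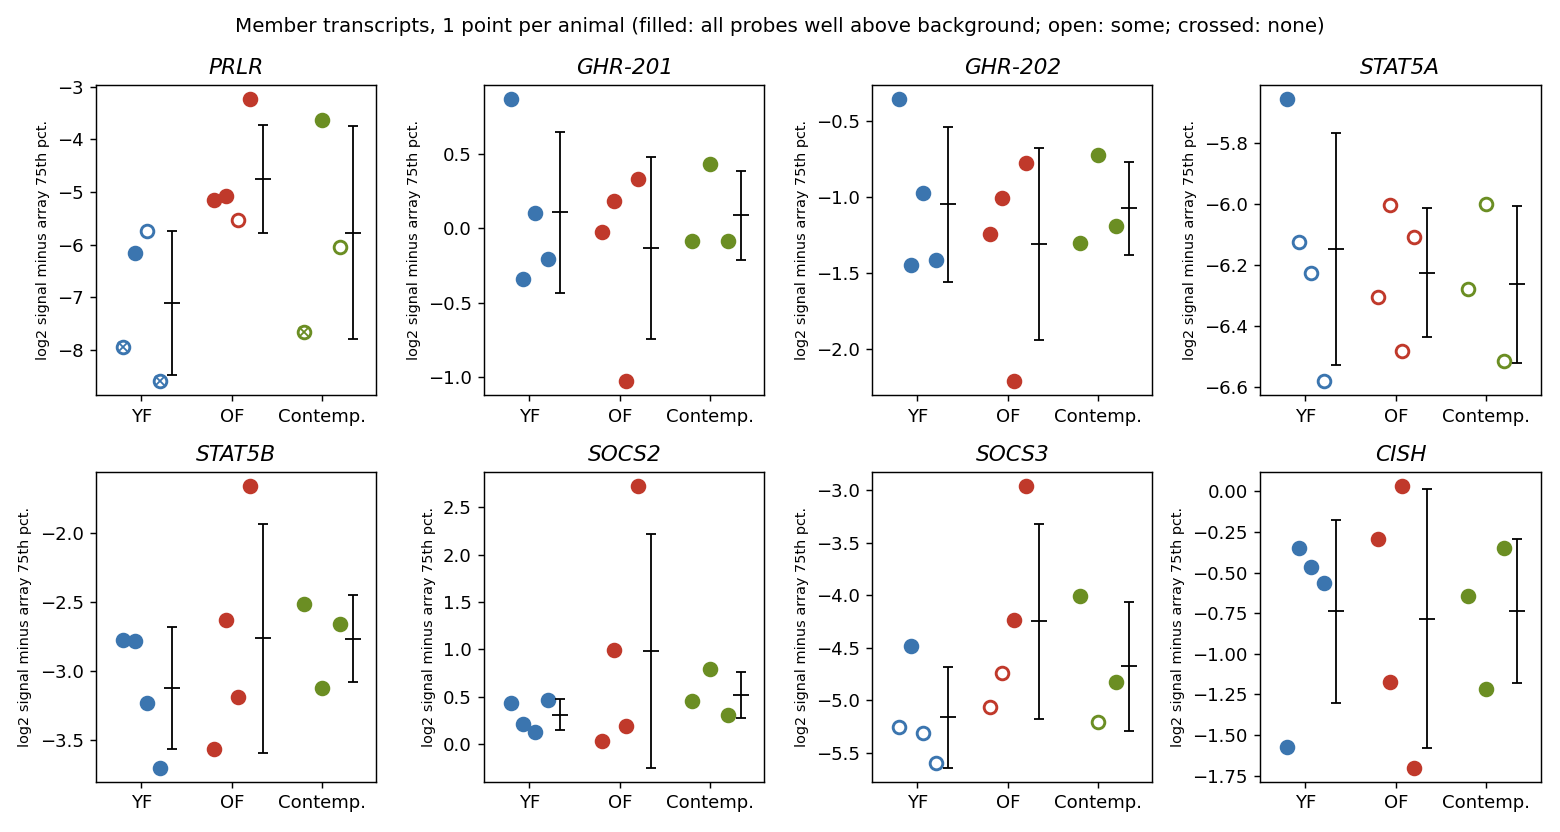
Level of each transcript in each animal (log2 signal minus the 75th percentile of the array), in YF, OF and contemporary cows; short bars with whiskers are the mean and SD. PRLR in OF sits between -5.53 and -3.23, above the YF points, of which the 2 crossed ones had no probe above background, and for the other transcripts the groups overlap.

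PRLR was near the detection limit. At least 1 of its probes was well above background in 4 of 4 OF, 2 of 4 YF and 2 of 3 contemporary cows, and both probes in 3, 1 and 1 of them. YF 1069 and 1127 and contemporary cow 1068 had no PRLR probe above background, so their levels mark only how dim the spots were. OF exceeded YF by 2.36 (SE 0.73) on the log2 scale, where the YF mean rests in part on the 2 animals without a probe above background, so the size is uncertain. Both probes went the same way, by 2.48 and 2.23. The size depended on the processing. With a normexp correction of the raw spot intensity the difference was 0.75. That correction adds an offset of 50 to each intensity, which draws the log2 levels of dim spots together. With array weights the difference was 1.54.

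PRLR also differed by slide among YF. The arrays lay on 2 slides, and the 2 YF with the brighter PRLR (1070 and 1072) shared slide 1, while the 2 YF without a PRLR probe above background shared slide 2. On slide 1 the single OF, 0245, exceeded the mean of the 2 YF by 0.41, and on slide 2 the mean of 3 OF exceeded that of 2 YF by 3.78. Leaving out each animal in turn gave differences from 1.85, without OF 2258, to 2.81, without YF 1072. With the slide as a block, the PRLR difference between OF and YF was 2.58. The part of the slide in the result was not tested.

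Contemporary cows lay between the 2 groups in their mean PRLR level, 1.33 above YF and 1.03 below OF, and overlapped both. These values turned on single animals: without 1128 the difference to YF was 0.26, without 1068 it was 2.27, and the difference to OF ran from -2.10 without 1128 to -0.09 without 1068. With array weights it was 0.46, on the other side of 0. The order of the means was OF, contemporary, YF, and neighbours in that order that include the contemporary cows overlapped, with a range among those cows wider than either difference.

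GHR was far brighter against background, and all its probes were well above it on all 12 arrays. The leading transcript, GHR-201 (ENSBTAT00000001758), lies at chr20:31890736-32199996, and GHR-202 (ENSBTAT00000036771) at chr20:31890765-32079527. For GHR-201 the level was -0.02 in OF 0233, 0.19 in 0234, -1.02 in 0245 and 0.33 in 2258. It was 0.87 in YF 1069, -0.34 in 1070, 0.10 in 1072 and -0.21 in 1127, and -0.08, 0.43 and -0.09 in contemporary cows 1068, 1128 and 1129. The 3 groups overlapped, with the highest animal a YF and the lowest an OF. GHR-202 placed the animals in nearly the same order, from -2.21 in OF 0245 to -0.36 in YF 1069.

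OF differed from YF by -0.24 (SE 0.36) for GHR-201 and by -0.26 (SE 0.36) for GHR-202. Contemporary cows differed from YF by -0.02 for GHR-201, with a 95% interval from -0.74 to 0.70, and from OF by 0.22, with an interval from -0.59 to 1.03. For GHR-202 the same 2 differences were -0.02 and 0.24. The adjusted p was 1.0 against YF and 0.971 against OF for both transcripts (limma, Benjamini-Hochberg over all transcripts tested).

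**Figure D2:**
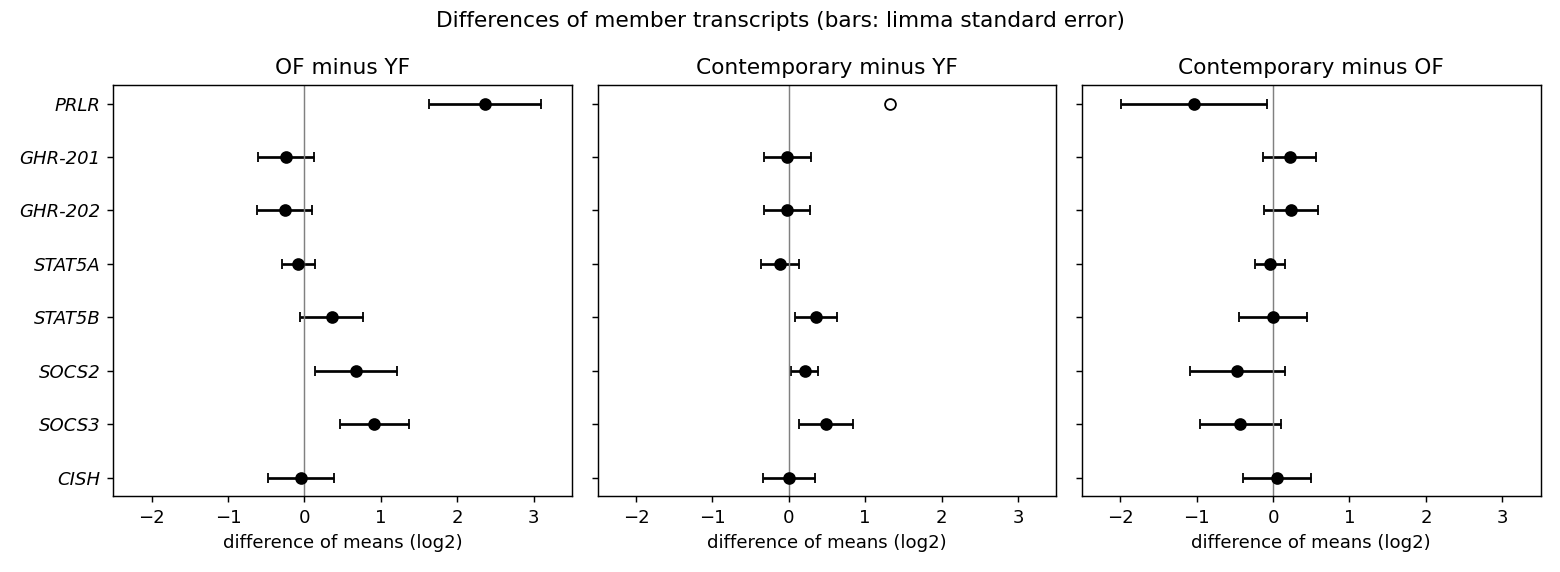
Difference of group means for each transcript (log2) in the 3 comparisons; whiskers are limma standard errors, and the open point is PRLR in contemporary cows against YF, which was too dim in both groups to enter the fit. PRLR lies farthest from 0 between OF and YF, at 2.36, and GHR, STAT5A and CISH lie within 0.3 of 0 in each comparison.

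The transcription factors carry the receptor signal to the nucleus. STAT5B (ENSBTAT00000012497, chr19:42960226-42996671) and STAT5A (ENSBTAT00000034831, chr19:43033597-43054075) are neighbours, 36926 bases apart. STAT5B was well above background on all 12 arrays. Its level was -3.56 in OF 0233, -2.63 in 0234, -3.19 in 0245 and -1.66 in 2258. It was -2.77 in YF 1069, -2.78 in 1070, -3.23 in 1072 and -3.70 in 1127. In contemporary cows it ranged from -3.12 in 1128 to -2.52 in 1068. The groups overlapped, and OF 2258 stood above every other animal.

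STAT5B in OF exceeded YF by 0.36 (SE 0.41), and without OF 2258 the difference was -0.01. Contemporary cows exceeded YF by 0.36 (SE 0.28, 95% interval -0.28 to 0.99, limma adjusted p = 1.0) and differed from OF by -0.0038 (SE 0.44, 95% interval -1.04 to 1.03, limma adjusted p = 1.0).

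STAT5A was close to background. Its first probe was above background, in both copies of the spot set, on 11 of 12 arrays, and its second on 1. Each STAT5A probe stood on the array under 2 names with the same sequence. On a single array the 2 copies differed by up to 1.20 for the first probe and 1.73 for the second, against at most 0.21 for the likewise duplicated probes of CISH, which were bright. STAT5A levels ran from -6.48 to -6.01 in OF, from -6.58 to -5.66 in YF and from -6.51 to -5.999 in contemporary cows, a spread below the disagreement between copies of 1 sequence. OF differed from YF by -0.08 (SE 0.21), and contemporary cows from YF by -0.12 (SE 0.24, 95% interval -0.68 to 0.45) and from OF by -0.04 (SE 0.20, 95% interval -0.50 to 0.42).

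The inhibitors are themselves products of STAT signalling, and each binds to the receptor or to its kinase. SOCS2 (ENSBTAT00000015929, chr5:23523981-23528860), best known as a brake on growth hormone receptor signalling, was well above background on all 12 arrays. Its level was 0.04 in OF 0233, 0.99 in 0234, 0.19 in 0245 and 2.73 in 2258. It was 0.43 in YF 1069, 0.22 in 1070, 0.13 in 1072 and 0.46 in 1127. It was 0.46, 0.79 and 0.31 in contemporary cows 1068, 1128 and 1129. YF and contemporary cows were close together, whereas OF spread over 2.69, with 2258 and 0234 above every YF and 0233 below every YF.

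SOCS2 in OF exceeded YF by 0.68 (SE 0.54), and without OF 2258 by 0.10. Contemporary cows exceeded YF by 0.21 (SE 0.18, 95% interval -0.21 to 0.63, limma adjusted p = 1.0) and differed from OF by -0.47 (SE 0.62, 95% interval -1.92 to 0.99, limma adjusted p = 0.967). The 2 SOCS2 probes share 58 of 60 bases and gave differences between OF and YF of 0.70 and 0.65.

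SOCS3 (ENSBTAT00000011106, chr19:54458856-54459555), which acts on several cytokine receptors, had 1 probe above background on all 12 arrays and a second that passed in 2 of 4 OF, 1 of 4 YF and 2 of 3 contemporary cows. Its level was -5.06 in OF 0233, -4.74 in 0234, -4.23 in 0245 and -2.96 in 2258. It was -5.26 in YF 1069, -4.48 in 1070, -5.31 in 1072 and -5.60 in 1127. It was -4.00 in contemporary cow 1068, -5.20 in 1128 and -4.83 in 1129. OF 2258 was again the highest animal, 2 of the 4 OF lay above all YF, and the groups overlapped.

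SOCS3 in OF exceeded YF by 0.91 (SE 0.45). By probe the difference was 0.60 for the one above background throughout and 1.23 for the dim one, and without OF 2258 it was 0.48 for the transcript. With normexp it was 0.44, and with array weights 0.41. Contemporary cows differed from YF by 0.49 (SE 0.35, 95% interval -0.33 to 1.30, limma adjusted p = 1.0) and from OF by -0.43 (SE 0.53, 95% interval -1.67 to 0.81, limma adjusted p = 0.967).

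CISH (ENSBTAT00000030652, chr22:50320205-50325617), an inhibitor that competes for the STAT5 docking sites, was above background on all 12 arrays. Its level was -0.30 in OF 0233, -1.17 in 0234, 0.03 in 0245 and -1.70 in 2258. It was -1.57 in YF 1069, -0.35 in 1070, -0.46 in 1072 and -0.57 in 1127. It was -0.65, -1.22 and -0.35 in contemporary cows 1068, 1128 and 1129. In contrast with SOCS2 and SOCS3, its lowest level was in OF 2258, and OF lay on both sides of YF. OF and YF differed by -0.04 (SE 0.43), and contemporary cows from YF by 0.0013 (SE 0.34, 95% interval -0.79 to 0.80) and from OF by 0.05 (SE 0.45, 95% interval -0.996 to 1.09).

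Between OF and YF, 1 of the 8 transcripts, PRLR, had groups that did not overlap with OF higher, against 0.931% of all 19755 transcripts tested. FCROS, the rank-based method of the study, called 2 of the 8, PRLR and SOCS3, against 4.94% of all transcripts. As the members were chosen with this contrast known, nothing is read from these counts.

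In the contemporary comparisons, the 7 transcripts other than PRLR gave 14 tested differences, none past the threshold. The share of all transcripts past an adjusted p of 0.05 was 0% in both comparisons (0 of 19993 against YF and 0 of 19914 against OF). At an unadjusted p of 0.05 limma called 606 (3.03%) and 911 (4.57%) transcripts, none of them among the 7, whose smallest unadjusted p was 0.208. FCROS called 4.23% and 5.4% of transcripts and none of the 7. It called PRLR higher in contemporary cows than in YF (f-value 0.985) and did not call it against OF. FCROS used all transcripts, whereas PRLR was too dim in both YF and contemporary cows for the limma fit. A PRLR probe was above background in 2 of 4 YF and 2 of 3 contemporary cows. PRLR was also chosen on its OF and YF levels, so nothing is read from this call. For the 7 others, the exact two-sided permutation p over animals ran from 0.286 to 1.0, where the smallest that 3 against 4 animals allow is 0.0571. These 7 were also chosen with the OF and YF values known, and those values form 1 side of each comparison. Nothing is therefore read from their p-values or intervals. The 2 comparisons share the contemporary cows, and each shares its other group with OF against YF. Each animal gave 1 array, so the errors measure the spread between animals.

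Within slides, the single OF of slide 1 differed from its 2 YF by 0.017 for SOCS2, 0.66 for SOCS3, -0.18 for STAT5B, 0.44 for CISH, -0.91 for GHR-201 and -0.31 for STAT5A. On slide 2, where 3 OF met 2 YF, the same differences were 0.80, 1.17, 0.62, 0.013, -0.17 and -0.021. PRLR, SOCS3, SOCS2 and CISH were higher in OF on both slides, by little on slide 1 for SOCS2 and on slide 2 for CISH, and STAT5B had opposite signs. With the slide as a block the CISH difference was 0.17, against -0.04 without it. All 3 contemporary cows compared lay on slide 2, and against the 2 YF of that slide they differed by 2.48 for PRLR, 0.75 for SOCS3, 0.072 for SOCS2 and -0.24 for GHR-201. These 2 YF and contemporary cow 1068 had no PRLR probe above background, so the size for PRLR is uncertain.

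Markers of other cells were set beside these values. Smooth muscle markers, of which 12 of 13 could be named and were above background on all arrays, averaged from -0.42 to 4.70 in OF, from -0.84 to 0.67 in YF and from -0.30 to 0.14 in contemporary cows. The 2 OF with high values were 2258 at 4.70 and 0234 at 3.04, which were also the 2 highest of all 11 animals for SOCS2. OF 2258 had the highest smooth muscle level together with the highest PRLR, STAT5B, SOCS2 and SOCS3, the lowest CISH and the lowest epithelial marker level, -1.15 against -0.43 to 1.501 in the other animals. In OF 0233 and 0245 the smooth muscle level was -0.42 and 0.33, inside the YF range, and their PRLR levels were -5.15 and -5.53, beside -5.75 in the highest YF. Contemporary cow 1128 ranked 2 of 11 for PRLR, at -3.64, with a smooth muscle level of -0.30. Contemporary cow 1068 ranked 2 of 11 for SOCS3 and STAT5B, with a smooth muscle level of 0.14. In whole biopsies, fewer cells of a type and less RNA per cell cannot be told apart. The part of smooth muscle in the PRLR, SOCS2, SOCS3, STAT5B and CISH values was not tested.

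**Figure D3:**
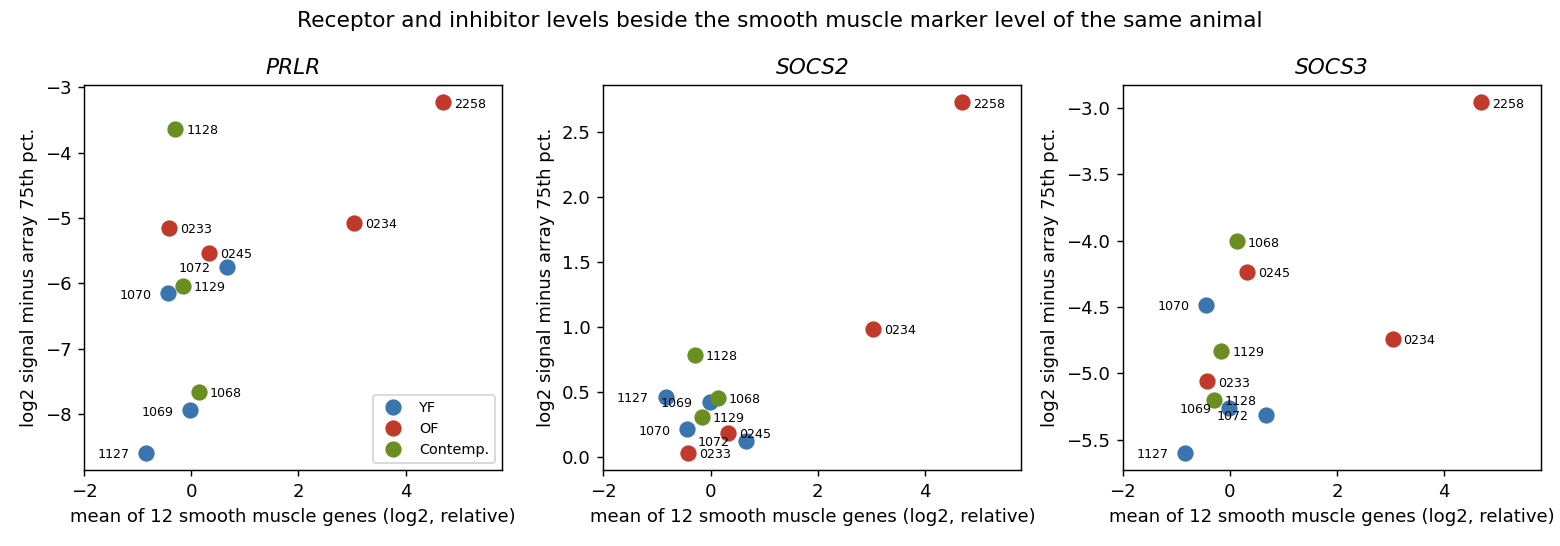
Level of PRLR, SOCS2 and SOCS3 (log2 signal minus the 75th percentile of the array) against the mean level of 12 smooth muscle genes in the same animal; colours are the groups and labels the animal numbers. OF 2258 is at the upper right in each panel and OF 0234 follows it for SOCS2, and OF 0233 and 0245 have smooth muscle levels of -0.42 and 0.33, inside the YF range.

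The other marker lists shifted less between OF and YF. Mean levels in OF and YF were 0.56 and 0.72 for epithelium, 2.89 and 3.14 for stroma, -0.72 and -0.87 for endothelium (8 markers), -3.47 and -3.57 for leukocytes (12 markers, ITGAM never above background) and -5.12 and -4.47 for mast cells (5 markers, MS4A2 never above background). The mast cell mean ran from -5.24 to -5.05 in OF and from -4.66 to -4.29 in YF, but 2 of its markers were higher in OF. In the other lists the number of markers higher in OF was 4 for epithelium, 0 for stroma, 6 for endothelium and 8 for leukocytes.

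Genes with a pattern across animals most like PRLR and GHR were sought among 17802 named transcripts over 11 arrays, as a description. For PRLR they were KIF13A (Pearson r = 0.94, Spearman rho = 0.87), COL22A1 (0.89 and 0.94), the forkhead factor FOXO1 (0.86 and 0.92), VAT1 (0.86 and 0.88) and the lysosomal protease gene CTSD (0.85 and 0.72). For GHR-201 they were CYB5A (0.95 and 0.80), ARHGEF6 (0.95 and 0.92), the glucocorticoid receptor gene NR3C1 (0.94 and 0.90), DPYSL2 (0.94 and 0.78) and SNORA18 (0.93 and 0.77). The 5 genes most like GHR all had their highest level in YF 1069, whose GHR level was also the highest. The points share the 3 groups and the scaling of each array. For PRLR they include YF 1069, YF 1127 and contemporary cow 1068, which had no PRLR probe above background. COL22A1 was itself above background on 9 of the 11 arrays.

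The rest of the pathway was read from a list of 67 ligands, related receptors, kinases and adaptors, other STATs, inhibitors and targets, 64 of which were on the array under their names. Ligand transcripts were mostly dark. Of 14 ligand transcripts, 8 were above background on none of the 12 arrays and 1 on all of them. The placental lactogen gene CSH2 was above background on 0 arrays for both its transcripts, and growth hormone itself, GH1, on 1.

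Prolactin (PRL) was above background on 10 of 12 arrays, by at least 1 probe. Its level was -6.55 in OF 0233, -4.77 in 0234, -5.80 in 0245 and -3.63 in 2258. It was -5.87, -5.56, -6.85 and -5.47 in YF 1069, 1070, 1072 and 1127, and -5.63, -5.84 and -4.17 in contemporary cows 1068, 1128 and 1129. OF 2258 was the highest and the groups overlapped. Contemporary cows exceeded YF by 0.72 (SE 0.48, limma adjusted p = 1.0) and differed from OF by -0.03 (SE 0.73, limma adjusted p = 0.998). Between OF and YF, PRL was too dim to be tested. It entered both contemporary fits only through the contemporary cows. A PRL probe was above background in 3 of 3 of them, 3 of 4 OF and 3 of 4 YF, so the sizes are uncertain.

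The prolactin-related protein gene PRP3 was above background on all 12 arrays in 1 transcript (mean level -2.46) and on 0 in the other (mean level -8.70). The 2 probes of the brighter transcript averaged -3.90 and -1.02. It differed between OF and YF by 0.12 (SE 0.17).

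**Figure D4:**
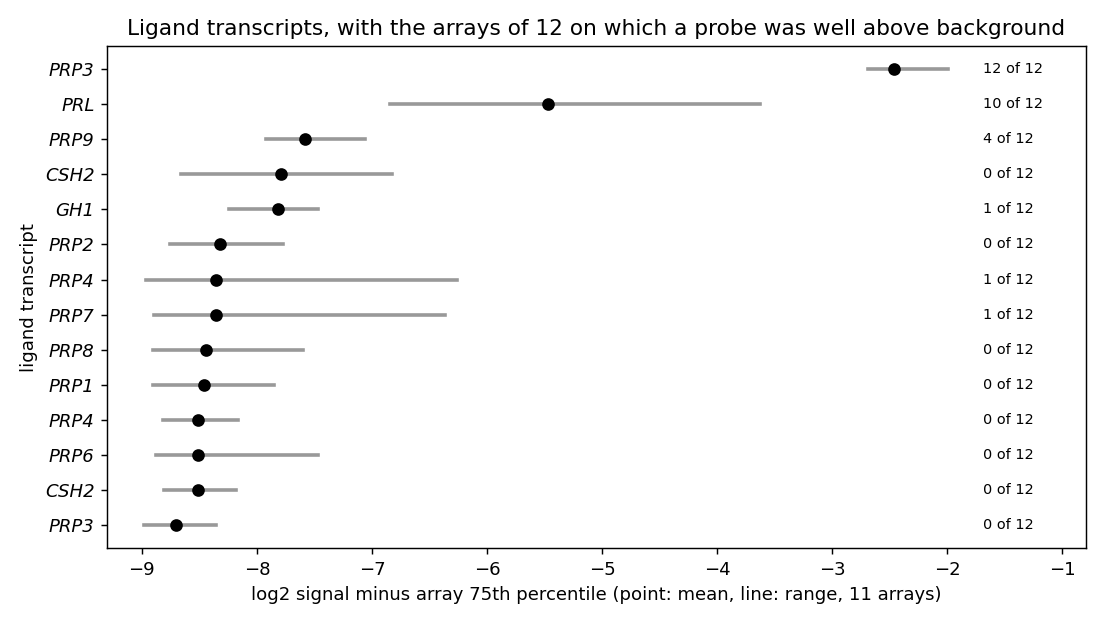
Ligand transcripts by mean level over 11 arrays (log2 signal minus the 75th percentile of the array), with the range as a line and the number of arrays of 12 on which a probe was well above background at the right. PRP3 (1 of its 2 transcripts) and PRL stand apart from the others, which were above background on 0 to 4 arrays.

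JAK2, the kinase of both receptors, had levels from -4.25 in OF 0245 to -2.90 in contemporary cow 1129, and the groups overlapped. It differed by -0.25 (SE 0.29) between OF and YF, by -0.0045 (SE 0.31) between contemporary cows and YF, and by 0.24 (SE 0.35) between contemporary cows and OF.

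Of the list, 48 genes were tested between OF and YF. By limma 0 passed an adjusted p of 0.05 and 0 an unadjusted p of 0.05, against 0% and 2.42% of all transcripts, and 23 were higher and 25 lower in OF. Their median difference was -0.01, and that of all transcripts 0.01. FCROS called 4 of the 64 genes, beside 4.94% of all transcripts, all higher in OF: CSH2, which was above background on no array, the kinase gene PIM1, and A2M and PIP. PIM1 was dim, from -7.59 in YF 1127 to -4.99 in OF 2258. The largest differences upward were A2M, which encodes a protease inhibitor, at 1.92 (SE 0.96), PIP, named for its induction by prolactin, at 1.15 (SE 0.73) and the transcription factor gene MYC at 0.98 (SE 0.57). For A2M the OF levels were -2.81 in 0233, -0.42 in 0234, -3.06 in 0245 and 1.56 in 2258 against -3.86 to -2.41 in YF, so that 2258 and 0234 lay above YF, and these were the 2 OF with high smooth muscle markers. For MYC, 2.42 in OF 2258 stood against -0.14 to 0.06 in the other OF.

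The largest differences downward between OF and YF were SRC at -0.46 (SE 0.24), the erythropoietin receptor gene EPOR at -0.40 (SE 0.37) and the milk protein gene CSN2 at -0.39 (SE 0.30). SRC was dim, from -7.02 in OF 2258 to -5.67 in YF 1070, and had no probe above background in OF 0245. The CSN2 probes disagreed: the bright one averaged 2.07 and differed by 0.65, and the dim one averaged -7.98, was above background on 2 of 12 arrays and differed by -1.43.

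Against YF, contemporary cows had 0 of 49 list genes past a limma adjusted p of 0.05. At an unadjusted p of 0.05 limma called 2, LEPR and HSD17B7, both higher. Of all transcripts, 3.03% were called at that level in either direction and 1.29% were called higher. FCROS called 3 of the 64, beside 4.23% of all transcripts: LEPR, EPOR and A2M. EPOR exceeded YF by 0.76 (SE 0.35), the leptin receptor gene LEPR by 0.76 (SE 0.29) and PRL by 0.72. PRL entered this fit only through the contemporary cows. The lowest were IGF1, the main growth factor induced by growth hormone in liver, at -0.41 (SE 0.42), SRC at -0.39 (SE 0.27) and PIK3R1 at -0.32 (SE 0.30).

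Against OF, contemporary cows had 0 of 48 list genes past a limma adjusted p of 0.05. At an unadjusted p of 0.05 limma called 2, EPOR and HSD17B7, both higher. Of all transcripts, 4.57% were called at that level in either direction and 2.59% were called higher. FCROS called 2 of the 64, beside 5.4% of all transcripts: LEPR and EPOR. EPOR was -3.50, -3.29 and -3.46 in contemporary cows 1068, 1128 and 1129 and -4.74, -4.22, -4.19 and -5.17 in OF 0233, 0234, 0245 and 2258. All contemporary cows lay above all OF, as did 2.86% of all transcripts, by 1.16 in the mean (SE 0.27, limma adjusted p = 0.783), and both EPOR probes gave 1.16. HSD17B7, which encodes a steroid and cholesterol synthesis enzyme that also binds PRLR, was 1.94, 1.68 and 2.04 in contemporary cows and 0.84 to 1.58 in OF, a difference of 0.63 (SE 0.23, limma adjusted p = 0.912), and 1.08 to 1.59 in YF, a difference of 0.56 (SE 0.18, limma adjusted p = 1.0). Against YF, 1.51% of all transcripts had every contemporary cow higher. LEPR exceeded OF by 1.11 (SE 0.54), but it entered this fit only through the contemporary cows. A LEPR probe was above background in 3 of 3 of them and in 2 of 4 OF, so the size is uncertain. The lowest were A2M at -1.22 (SE 1.09), PIM1 at -0.63 (SE 0.49) and PIP at -0.62 (SE 0.56).

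**Figure D5:**
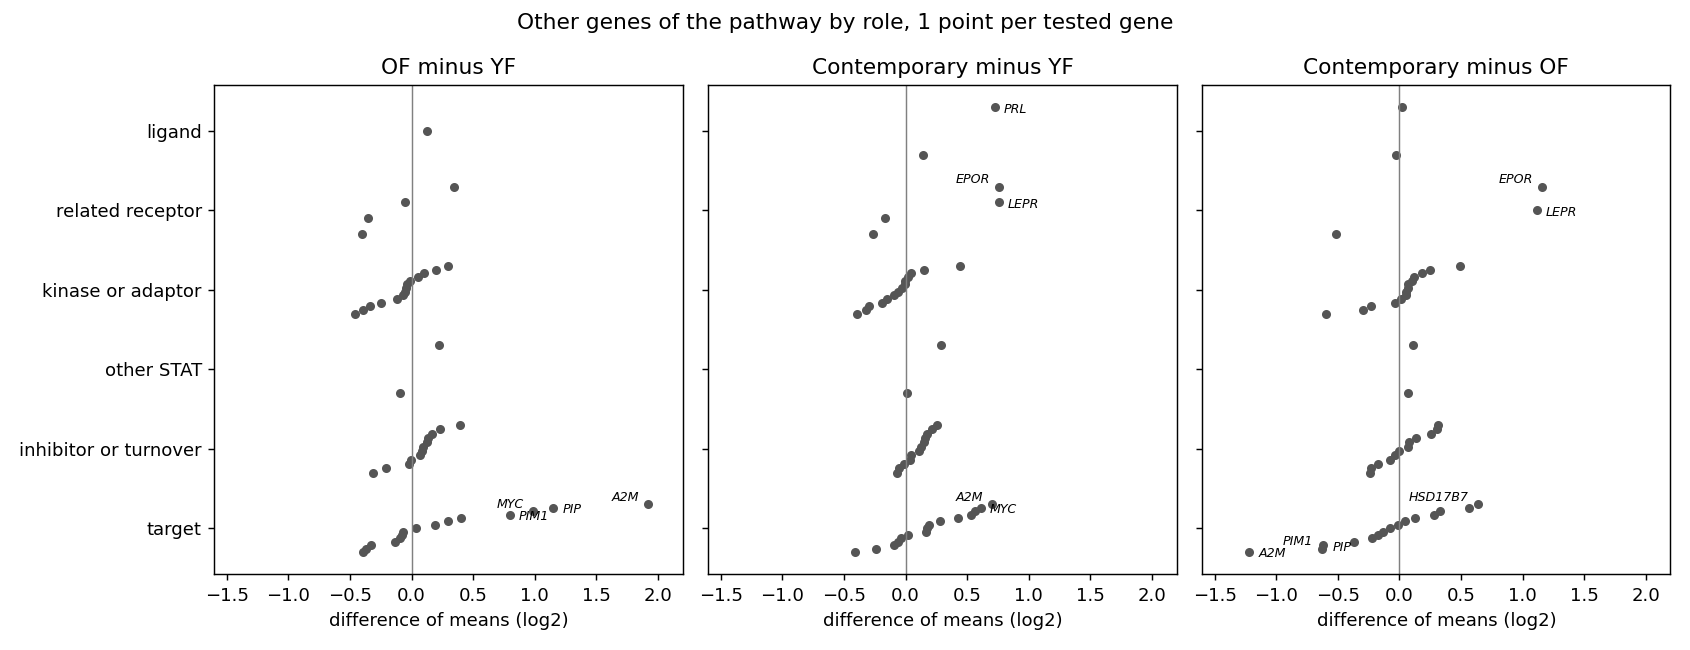
Difference of group means (log2) for each tested gene of the pathway list, by role, in the 3 comparisons; 1 point is 1 gene, and genes with a difference of 0.6 or more are named. Most genes lie within 0.5 of 0, with A2M at 1.92 between OF and YF and EPOR and LEPR at 1.16 and 1.11 between contemporary cows and OF. LEPR had a probe above background in only 2 of 4 OF.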

How the data were processed

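The authors deposited the Feature Extraction 10.7.3.1 output of 12 arrays hybridised in 1 colour, holding a background-corrected intensity per spot, without normalisation between arrays. Between 71.6% and 74.9% of probes were well above background per array and 0 were saturated. Array number limits precision. Control spots (1319) and 66 flagged probes were left out. From the log2 of the processed intensity the 75th percentile of the array was subtracted, and probes were averaged per transcript. A transcript was tested where at least 1 of its probes passed the background flag in all animals of either group, and groups were compared with limma 3.58.1 (R 4.3.3; two-sided, Benjamini-Hochberg, threshold 0.05), tested on simulated data. FCROS was coded from its description (f-values 0.025 and 0.975, fold change 1.5). Symbols came from RefSeq accessions (ARS-UCD2.0 table, names only; 12564 transcripts), then from the array annotation, and positions are those of the array annotation (UMD3.1).

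The members, the pathway and marker lists and the alternatives were chosen with earlier results of these data known. A gene is represented by its brightest transcript. Named are all members, the ligands, JAK2, the 3 pathway genes with the largest differences in each direction and the 5 genes most like each receptor. Genes outside this rule (ITGAM, MS4A2) were named after their values were seen.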

Additional observations from a re-analysis of the deposited data

Results flagged for a closer look

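In 62 groups of 4 animals (the members, and the pathway genes named, in OF and in YF), 4 had an animal far from the others. That is near the 1 group in 20 or so that chance gives for independent groups. These groups share animals, and some genes were named for large differences between groups, which an outlying animal can change. None was of the 7 members. In OF, animal 2258 stood apart for MYC (2.42, against -0.14 to 0.06 in the other OF), for PIK3R1 (-2.93, against -1.69 to -1.45) and for PIP (1.19, against 2.95 to 3.28). In YF, animal 1072 stood apart for the prolactin-related protein gene PRP7 (-6.36, against -8.90 to -8.57), which was above background on 1 array.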

How the results depend on the processing

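Over 17 alternatives the PRLR difference between OF and YF ran from 0.75 (normexp) to 3.78 (slide 2 alone). Its sign is not read as support. PRLR was chosen on this contrast, and with all OF above all YF, leaving out an animal could not change the sign. Without the filter on dim probes, or with all 3 groups in 1 fit, the difference stays 2.36 by construction. In no alternative did an adjusted p of the other members pass the threshold in a contemporary comparison (smallest 0.601). Beside FCROS, which called 1300 transcripts between OF and YF, 1113 between contemporary cows and YF and 1422 between contemporary cows and OF (4, 3 and 2 of the pathway list), limma called 0 between OF and YF in each alternative. Between contemporary cows and YF it called 1 with quantile normalization, 2 with all 3 groups in 1 fit, 1 with array weights, 4 with cow 1111 and 0 to 1 with an animal left out. Between contemporary cows and OF it called 26 with array weights, 2 with cow 1111 and 0 to 1 with an animal left out. Limma called 0 pathway list genes in each alternative.

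Differences near 0 changed sign under some settings. Between OF and YF, GHR-201 was 0.091 and GHR-202 0.028 with array weights, STAT5A was 0.12 with normexp, 0.19 with the brightest probe and 0.11 with array weights, and CISH was 0.17 with the slide as a block and 0.013 within slide 2. With an animal left out they ran from -0.39 to 0.057 for GHR-201, -0.44 to 0.040 for GHR-202, -0.22 to 0.085 for STAT5A and -0.32 to 0.26 for CISH, and STAT5B from -0.0081 to 0.63. In contemporary cows against YF, GHR-201 was 0.024 with median centring and 0.27 with array weights, GHR-202 was 0.018 and 0.24 with them and 0.035 with the brightest probe, STAT5A was 0.037 with array weights, and CISH was -0.0061 with normexp, -0.068 with the brightest probe and -0.40 with array weights. Against OF, GHR-201 was -0.076 and GHR-202 -0.065 with the slide as a block, which equals slide 2 alone, STAT5A was 0.059 with quantile normalization, STAT5B was 0.028 with it, 0.025 with median centring and 0.019 with the brightest probe, and CISH was -0.022 with array weights. With an animal left out, differences against YF ran from -0.19 to 0.24 for GHR-201, -0.20 to 0.21 for GHR-202, -0.26 to 0.047 for STAT5A and -0.28 to 0.24 for CISH. Against OF they ran from -0.076 to 0.38, -0.065 to 0.41, -0.17 to 0.087 and -0.26 to 0.32, and from -0.27 to 0.36 for STAT5B, -0.78 to 0.11 for SOCS2 and -0.77 to 0.0018 for SOCS3. The cause of these changes was not tested.

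Signal over background limited PRLR, STAT5A and 1 SOCS3 probe, and without OF 2258 the SOCS2 and STAT5B differences between OF and YF were 0.10 and -0.01. No paired analysis was possible because the replicate numbers are animal numbers that no 2 groups share.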

Other observations

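Contemporary cow 1111, which the authors left out and which entered no comparison above, had PRLR at -5.71 with both probes above background, GHR-201 at -0.62, GHR-202 at -1.76, STAT5B at -3.35, SOCS2 at 0.12, SOCS3 at -4.91, CISH at -0.57 and STAT5A at -6.82. Its GHR and STAT5A levels lay below those of the 3 other contemporary cows, and its PRLR level lay inside their range. Its array shared slide 1 with OF 0245 and YF 1070 and 1072.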
